A study of Homo sapiens with 6 samples.

Results

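Interferon-stimulated and RNA sensing genes were followed in HEK293T cells labelled as double knockouts of the RNA demethylases ALKBH5 and FTO, against wild type cells. The set is a list of 41 genes, each matched by its GENCODE release 29 symbol to a row of a count table of 58721 genes. All 41 genes had a row, and 21 of them carried enough reads to be tested. The members were chosen by name, with earlier results of these data known, and not by a threshold on the values.

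The study compared 3 RNA sequencing libraries of double knockout cells with 3 libraries of wild type cells, labelled as independent biological replicates. The double knockout libraries came from HEK293T cells in which both ALKBH5 and FTO had been targeted with CRISPR/Cas9, and the wild type libraries from HEK293T cells with no stated edit. HEK293T is a human embryonic kidney line. The labels name no interferon, viral RNA or other inducer for any sample. The RNA came from cleared detergent lysates made with cycloheximide, was called cytoplasmic, was depleted of ribosomal RNA and was not selected for poly(A). The wild type columns were named HEK293G6 and were taken as wild type because no other genotype remained. The sources used here do not give the number of clones behind each genotype, so a difference between clones and an effect of the knockout cannot be told apart. Libraries of the same genotype differed by little more than counting error. Their chi-square per degree of freedom was 1.105 to 1.408, against 11.85 to 13.93 between genotypes. The p-values given below rest on that small spread and do not measure the spread between clones.

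Cells detect foreign RNA through cytosolic helicases such as RIG-I (DDX58) and MDA5 (IFIH1), which signal through MAVS to the transcription factors IRF3 and IRF7 and so to interferon. Secreted interferon then acts through receptor-bound kinases on a complex that includes STAT2 and IRF9 and binds the interferon-stimulated response element (ISRE) in promoters. The induced genes include RNA-binding effectors (IFIT and OAS families), membrane proteins that block virus entry (IFITM), and ISG15, a ubiquitin-like modifier with its own ligases and protease. The inosine that ADAR makes and m6A, the mark that ALKBH5 and FTO can remove, are both RNA modifications known to help cells tell their own RNA from foreign RNA.

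The ISRE is the sequence through which many of these genes are known to be induced, so it was looked for in RefSeq promoters (GRCh38.p14), from 250 bases before to 50 bases after each start. The letters searched were GAAA, any pair of bases and GAAA again, on both strands. Of 31 listed genes with a promoter entry, 20 held a match (64.5%), against 1195 of 27305 genes in the whole promoter table (4.38%). Per promoter the shares were 24 of 44 and 1255 of 35116 (3.57%). The list names known interferon targets, so this share describes the list and is not a result of the knockout. Matches overlap each other in some promoters. The gamma-activated site, TTCNNNGAA on both strands, was present in 9 of the 31 listed genes (29%) and in 2560 of all genes (9.38%). OAS2, USP18, TRIM22, IRF3, MX2, IFIT2, OASL, DHX58, IRF7 and IFITM2 had no entry.

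The matches are shown for genes that rose (OAS3, IFITM3, TAP1), fell (HERC5, IFIT1) or passed no threshold (ISG15) in the double knockout. Each line is 5′ to 3′ on the gene's strand, with 1 match in capitals. Both matches are shown for OAS3 and IFITM3, and 1 of 3 for HERC5 and 1 of 2 each for TAP1, IFIT1 and ISG15. A match on the opposite strand reads TTTC, any pair of bases and TTTC.
OAS3 distal: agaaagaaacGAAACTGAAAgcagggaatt
OAS3 proximal: agccgggcggGAAAACGAAAcc
IFITM3 distal: caaatgccagGAAAAGGAAActgttgagaa
IFITM3 proximal: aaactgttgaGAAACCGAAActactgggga
TAP1: aggcggccgcTTTCGATTTCgctttcccct
HERC5: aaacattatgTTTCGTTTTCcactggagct
IFIT1: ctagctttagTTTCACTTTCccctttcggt
ISG15: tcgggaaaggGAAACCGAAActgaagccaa
In GRCh38 these stretches are chr12:112938321-112938350 and chr12:112938452-112938473 on the plus strand for OAS3, and chr11:320893-320922 and chr11:320876-320905 on the minus strand for IFITM3. They are chr6:32853819-32853848 (minus) for TAP1, chr4:88457035-88457064 (plus) for HERC5, chr10:89392497-89392526 (plus) for IFIT1 and chr1:1013380-1013409 (plus) for ISG15. A match was present in 4 of 6 risen genes with an entry, in 2 of 3 fallen genes and in 5 of 9 genes that passed no threshold. Among members with too few reads to be tested, 9 of 13 with an entry held a match. Genes with these letters were thus found among those that rose, those that fell and those that did neither. A match is a description of the sequence and not a shown binding site.

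Total gene counts lay between 5923328 and 6433469 in the double knockout libraries and between 5634648 and 7551825 in the wild type libraries. FTO averaged 56.1 ± 4.21 CPM (normalised read counts, scaled to library size) in the double knockout and 105 ± 7.83 CPM in wild type (SD, n = 3 each, log2 fold change -0.90, edgeR adjusted p = 4.00e-44). ALKBH5 averaged 186 ± 0.599 CPM in the double knockout and 245 ± 10.3 CPM in wild type (-0.40, adjusted p = 2.74e-22), so both transcripts were lower but present. All 8 markers listed for HEK293 cells were measured (VIM, KRT8, KRT18, NEFL, NEFM, PAX2, LIN28B and IGF2BP1). Their summed level was 1915 to 1927 CPM in the double knockout and 1553 to 1625 CPM in wild type. Of these 8 markers, 6 rose and 2 fell, where 57.1% of all tested genes changed. The fallen markers were LIN28B (log2 fold change -0.39) and IGF2BP1 (-0.25). The 14 leukocyte markers summed to 2.88 to 3.69 CPM in the double knockout and 2.17 to 3.02 CPM in wild type. Of these 14, 6 were at 0 in all libraries, and the pan-leukocyte gene PTPRC had 2 counts over the double knockout libraries and 1 over wild type. In such bulk samples, fewer cells that express a gene and less of its RNA per cell cannot be told apart.

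With edgeR's quasi-likelihood test and Benjamini-Hochberg adjustment over all tested genes, 8 of the 21 tested members rose, 4 fell and 9 did not pass an adjusted p of 0.05. Across all 14180 tested genes, 57.1% changed, 28.6% upwards and 28.5% downwards, so the share of members that changed was the same as the background. The median log2 fold change (double knockout over wild type) was 0.10 over the 21 tested members and 0.01 over all tested genes. Scaling by the spike-in RNAs moved the median of all genes by -0.11 and that of the members to -0.0097, so the sign of the members' median depends on the scaling. At least 2-fold, 4 members rose (OAS3, IFITM3, USP18 and IFITM2) and 1 fell (HERC5), where 4.63% of all genes rose and 1.37% fell by that much. With spike-in scaling USP18 (log2 fold change 0.998) and IFITM2 (0.986) came just short of 2-fold. IFITM2 was also below it without wild type replicate 1 (0.958). The shares of all genes at 2-fold in those settings are not given here. The libraries of the groups did not overlap in 12 of the 21 tested members, 8 higher and 4 lower in the double knockout. They did not overlap in 60.6% of all tested genes (30.3% in each direction). DDX58 and IFI35 reached the count minimum in all double knockout libraries but not in every wild type library. Summed over all 41 genes the level was 965 to 988 CPM in the double knockout and 954 to 972 CPM in wild type.

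**Figure D1:**
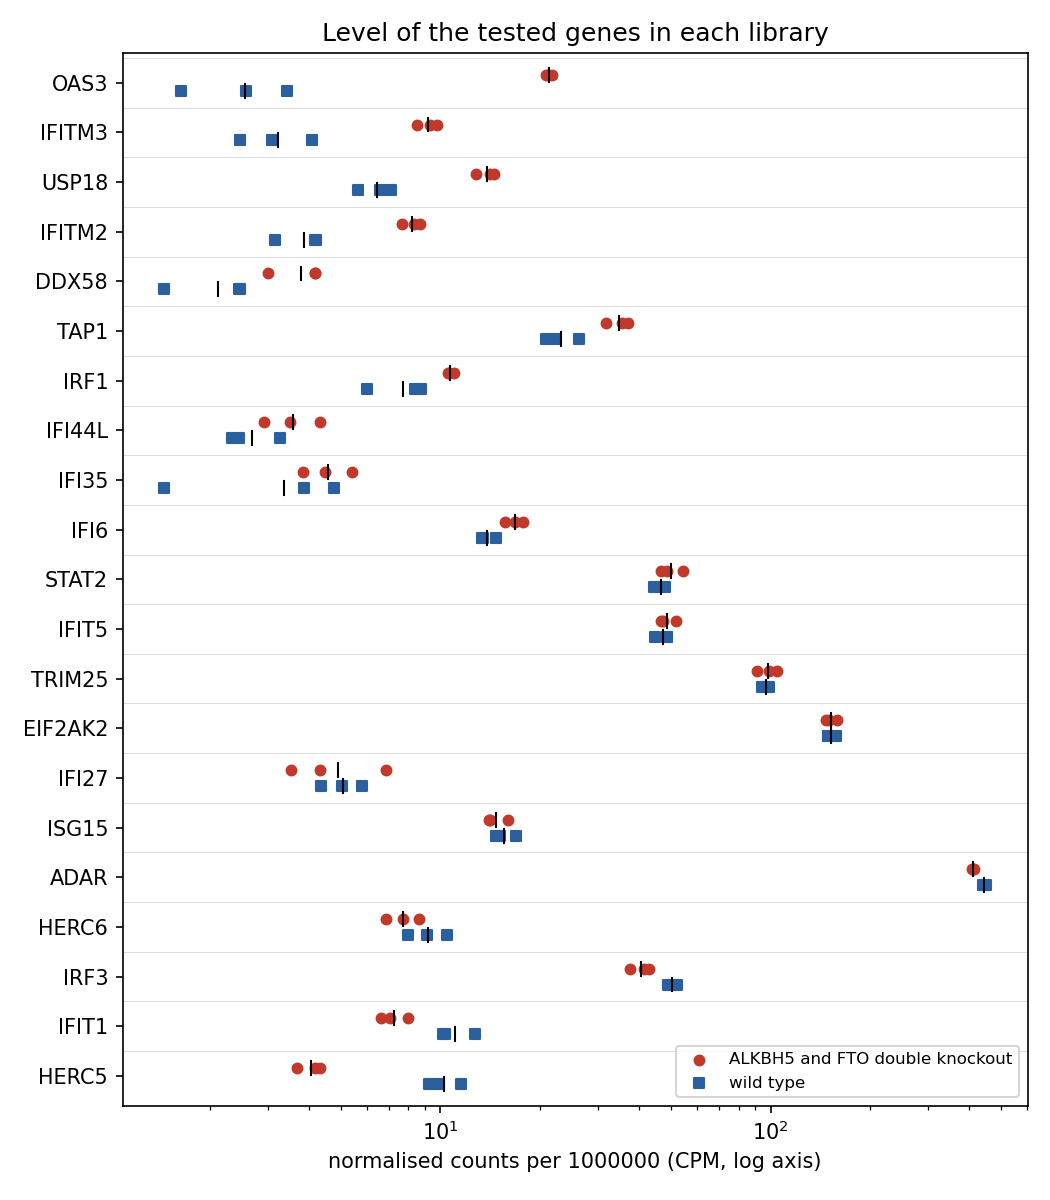
Level of each tested gene in each library, in CPM on a log axis, with red circles for the 3 double knockout libraries and blue squares for the 3 wild type libraries; black ticks are group means and genes are ordered by fold change. OAS3 lies between 20.9 and 21.8 CPM in the double knockout and between 1.63 and 3.44 CPM in wild type, and ADAR is the most abundant member.

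The oligoadenylate synthetases bind double-stranded RNA and make a messenger that sets off RNA decay. OAS3 (ENSG00000111331.12, chr12:112938352-112973249, plus strand, hg38), the large form of the family, showed the biggest rise of the tested members. OAS3 had 21.8, 20.9 and 21.1 CPM in the double knockout libraries, against 3.44, 2.58 and 1.63 CPM in the wild type libraries. Every double knockout library was far above every wild type library, although the wild type values rest on 53 counts in all. The log2 fold change of OAS3 was 3.01 (SE 0.17, adjusted p = 2.99e-53), an 8.04-fold rise. The fold change lay between 2.81 and 3.27 when single libraries were left out. Its flanking relatives on chromosome 12 were nearly silent: OAS1 had 1 count over the double knockout libraries and 0 over wild type, and OAS2 had 3 and 2 counts. The more distant OASL, a catalytically inactive relative that aids RIG-I, also had 3 and 2 counts.

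Among the RNA sensors, transcripts of the helicase family were scarce in both genotypes. DDX58, which encodes RIG-I and recognises RNA with a 5′ triphosphate, had 2.997, 4.16 and 4.16 CPM in the double knockout libraries and 2.47, 2.44 and 1.45 CPM in the wild type libraries. The groups did not overlap, but the nearest libraries of the 2 genotypes were 2.997 and 2.47 CPM. DDX58 rose by 0.79 (SE 0.29, adjusted p = 0.0119), a call lost without double knockout replicate 2 (adjusted p = 0.0571), double knockout replicate 3 (0.0541) or wild type replicate 3 (0.0818). IFIH1, which encodes MDA5, a sensor of long double-stranded RNA, was too scarce for the count filter, with 8, 7 and 6 counts in the double knockout libraries and 1, 3 and 0 in the wild type libraries. Its ratio, scaled by library size, was 5.64 (95% counting interval 1.90 to 22.6). DHX58, which encodes the regulatory helicase LGP2, had 19 counts over the double knockout libraries and 24 over wild type (ratio 0.85, interval 0.44 to 1.62).

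EIF2AK2 encodes PKR, a kinase that halts translation when it binds double-stranded RNA, and it was well measured. It had 159, 151 and 147 CPM in the double knockout libraries and 150, 149 and 158 CPM in the wild type libraries. The wild type values lay within the range of the double knockout values, and the log2 fold change was 0.01 (SE 0.04, adjusted p = 0.914). ADAR, the editor that converts adenosine to inosine in double-stranded RNA and so dampens MDA5 and PKR, was the most abundant member per length. It had 145 ± 3.59 TPM, a level scaled by exon length, in the double knockout and 153 ± 0.705 TPM in wild type. In CPM, ADAR had 410, 409 and 413 in the double knockout libraries and 444, 440 and 451 in the wild type libraries. All double knockout libraries lay below all wild type libraries. The log2 fold change was -0.12 (SE 0.03, adjusted p = 0.000767), and with spike-in scaling it was -0.22.

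Of the 5 transcription factors listed, 1 fell (IRF3), 1 rose (IRF1), 1 did not pass (STAT2) and 2 were listed at 0. IRF3, which is activated by phosphorylation downstream of MAVS, had 41.5, 42.8 and 37.6 CPM in the double knockout libraries and 52.2, 48.7 and 50.1 CPM in the wild type libraries. IRF3 was lower in every double knockout library, with a log2 fold change of -0.31 (SE 0.07, adjusted p = 8.77e-05). IRF3 shares 734 exonic bases with BCL2L12 on the opposite strand, which changed by -0.17 (adjusted p = 0.0130), and whether the counting used strand was not stated.

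IRF1, an activator of antigen presentation and antiviral genes, had 10.99, 10.6 and 10.6 CPM in the double knockout libraries and 8.39, 5.97 and 8.71 CPM in the wild type libraries. It rose by 0.50 (SE 0.16, adjusted p = 0.00465), a call lost without wild type replicate 2, the lowest library (adjusted p = 0.112). On the opposite strand, IRF1 shares 1716 of its 7799 exonic bases with C5orf56 and 469 with AC116366.3. C5orf56 had 2 counts over the double knockout libraries and 1 over wild type, and AC116366.3 had 12 and 13. STAT2 averaged 49.8 ± 3.87 CPM in the double knockout and 46.5 ± 1.81 CPM in wild type, with overlapping libraries (adjusted p = 0.204). IRF7 and IRF9 were listed at 0 in all 6 libraries. For IRF9, 1838 of 3794 exonic bases are shared with AL136295.5, a gene on the same strand, which had 8 counts over the double knockout libraries and 9 over wild type. The sources used here do not say how shared reads were counted, so the 0 of IRF9 cannot be read as absence.

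Of the IFIT proteins, IFIT1 and IFIT5 bind viral RNA through its 5′ end, and the IFIT genes lie side by side on chromosome 10. Of the 4 listed, 1 fell, 1 did not pass and 2 were too scarce for the count filter. IFIT1 (ENSG00000185745.9, chr10:89392546-89406486) had 7.99, 6.62 and 7.04 CPM in the double knockout libraries and 10.2, 10.3 and 12.7 CPM in the wild type libraries. Its log2 fold change was -0.60 (SE 0.16, adjusted p = 0.000588), with every double knockout library below every wild type one. IFIT5, which lies next to it, had 51.8, 47.2 and 46.6 CPM in the double knockout libraries and 48.5, 44.8 and 48.5 CPM in the wild type libraries, and the groups overlapped (log2 fold change 0.04, adjusted p = 0.656).

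The log2 ratio of IFIT1 to IFIT5 counts was -2.75 ± 0.07 in the double knockout and -2.10 ± 0.16 in wild type (SD, n = 3 each). A two-sided exact permutation test gave p = 0.1, which this number of libraries cannot go below. Adjusted over the 3 ratios computed, p was also 0.1. IFIT3 had 18, 10 and 13 counts in the double knockout libraries and 5, 4 and 2 in the wild type libraries, a ratio of 4.00 (interval 2.02 to 8.64). IFIT2 had 8 counts in each double knockout library and 3, 5 and 5 in the wild type libraries (ratio 1.98, interval 0.97 to 4.24).

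The IFITM proteins sit in cell membranes and hinder fusion of viruses. IFITM3 (ENSG00000142089.15, chr11:319669-327537) had 9.32, 8.46 and 9.76 CPM in the double knockout libraries and 2.47, 4.07 and 3.09 CPM in the wild type libraries. IFITM3 rose by 1.502 (SE 0.21, adjusted p = 7.64e-12). IFITM2 had 7.66, 8.31 and 8.64 CPM in the double knockout libraries and 3.16, 4.21 and 4.18 CPM in the wild type libraries, and rose by 1.10 (SE 0.20, adjusted p = 4.09e-07). In both genes all double knockout libraries lay above all wild type libraries, and both calls were kept in all 12 alternatives. The log2 ratio of IFITM3 to IFITM2 counts was 0.16 ± 0.13 in the double knockout and -0.28 ± 0.20 in wild type (exact permutation p = 0.1, the smallest possible).

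IFITM1 was listed at 0 in all libraries. It shares 351 of its 1080 exonic bases with IFITM2 on the same strand, and the family members are close copies, so their individual counts are uncertain. BST2, whose protein tetherin holds budding virions at the cell surface, had 6, 10 and 2 counts in the double knockout libraries and 5, 1 and 1 in the wild type libraries, which overlap.

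ISG15 is attached to newly made proteins by HERC5 and removed by USP18, and USP18 also restrains the interferon receptor. The modifier itself did not pass: ISG15 had 13.99, 14.2 and 16 CPM in the double knockout libraries and 15.1, 17.0 and 14.7 CPM in the wild type libraries (log2 fold change -0.09, SE 0.12, adjusted p = 0.543). USP18 (ENSG00000184979.9, chr22:18149899-18177397) had 14.2, 12.8 and 14.6 CPM in the double knockout libraries and 5.64, 7.06 and 6.54 CPM in the wild type libraries. USP18 rose by 1.11 (SE 0.16, adjusted p = 2.64e-11), with groups far apart. A close copy, USP41, had 11 counts over the double knockout libraries and 4 over wild type, and reads shared between the copies could be split.

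HERC5 (ENSG00000138646.8, chr4:88457117-88506163) moved in the opposite direction to USP18. HERC5 had 4.33, 4.16 and 3.68 CPM in the double knockout libraries and 11.5, 9.91 and 9.26 CPM in the wild type libraries. Its log2 fold change was -1.34 (SE 0.19, adjusted p = 2.45e-11), and no double knockout library came near the wild type values. The adjacent paralogue HERC6 had 6.83, 8.62 and 7.68 CPM in the double knockout libraries and 7.97, 10.5 and 9.08 CPM in the wild type libraries, and did not pass (-0.25, adjusted p = 0.195). The log2 ratio of HERC5 to HERC6 counts was -0.92 ± 0.23 in the double knockout and 0.16 ± 0.33 in wild type (exact permutation p = 0.1, the smallest possible). TRIM25, a ligase that acts on RIG-I, averaged 98.1 ± 6.98 CPM in the double knockout and 97.0 ± 2.48 CPM in wild type (adjusted p = 0.792).

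Of the remaining effectors, TAP1, a subunit of the transporter that supplies peptides to MHC class I, rose. TAP1 had 31.8, 37.1 and 35.5 CPM in the double knockout libraries and 22.3, 26.2 and 20.9 CPM in the wild type libraries. It rose by 0.58 (SE 0.09, adjusted p = 1.52e-09), with no overlap. IFI6, a mitochondrial and ER membrane protein, had 16.8, 15.7 and 17.8 CPM in the double knockout libraries and 13.3, 13.4 and 14.7 CPM in the wild type libraries. It rose by 0.28 (SE 0.12, adjusted p = 0.0374), and the call was lost when any of 4 single libraries was left out (double knockout replicate 1 or 3, or wild type replicate 1 or 2, adjusted p = 0.0765, 0.134, 0.118 and 0.105).

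IFI27 averaged 4.89 ± 1.73 CPM in the double knockout and 5.05 ± 0.709 CPM in wild type (log2 fold change -0.07, SE 0.22). IFI35 averaged 4.57 ± 0.782 CPM in the double knockout and 3.35 ± 1.71 CPM in wild type (0.38, SE 0.24), and IFI44L 3.58 ± 0.702 and 2.68 ± 0.509 CPM in the same order (0.44, SE 0.28). None of the 3 passed, with adjusted p of 0.794, 0.173 and 0.167. IFI35 turned on single libraries, with a log2 fold change of 0.69 without wild type replicate 2 (adjusted p = 0.0411) and 0.0858 without wild type replicate 3, its lowest library (adjusted p = 0.798). These 3 genes had between 53 and 103 counts over the libraries of a genotype. The dynamin-like antiviral GTPase MX1 had 3, 6 and 2 counts in the double knockout libraries and 0 in each wild type library. The 95% counting interval of its ratio, scaled by library size, starts at 2.696 and has no upper limit. MX2 had 3 counts over each genotype.

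**Figure D2:**
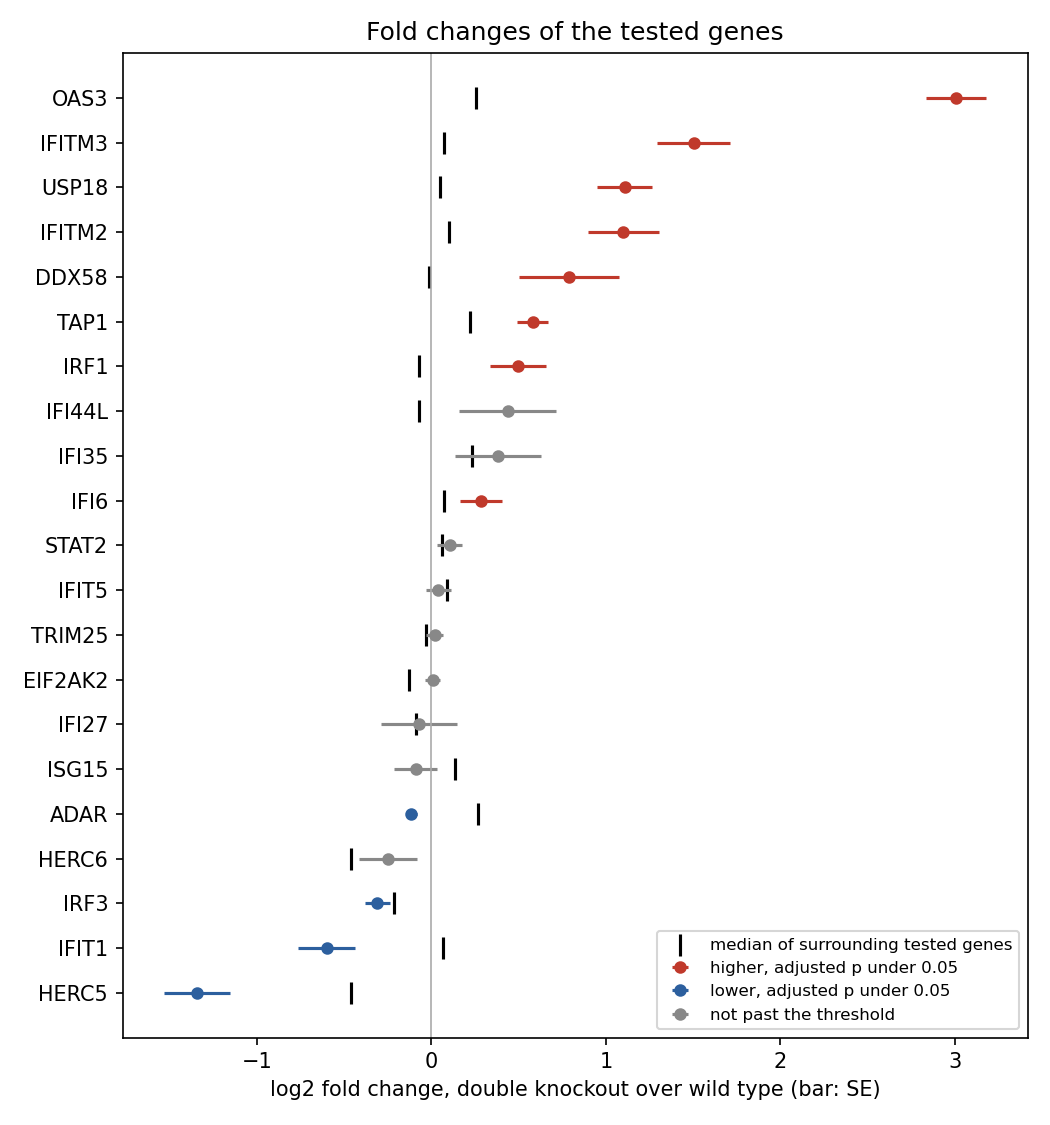
Log2 fold change of each tested gene, double knockout over wild type, with its standard error as a bar (red higher, blue lower, grey not past the threshold), and a black tick for the median of up to 25 tested genes on either side on the same chromosome. OAS3 stands 2.75 above its surroundings, while the surroundings of HERC5 and HERC6 had a median of -0.46.

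Genes around some members moved as well. The median log2 fold change of the 25 tested genes on either side of HERC5 and HERC6 was -0.46, which left -0.88 for HERC5 and 0.21 for HERC6. Around IRF3 the median was -0.21, which left -0.10, and around TAP1 it was 0.22, which left 0.36. Around ADAR the median was 0.27, opposite in sign to its fall. OAS3 (0.25), IFITM3 (0.07), IFITM2 (0.10), USP18 (0.05), DDX58 (-0.02), IRF1 (-0.07), IFI6 (0.07) and IFIT1 (0.07) had surroundings with medians nearer to 0 than their own change. The part of a shared regional shift in the members' changes was not tested.

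Of the 41 genes, 20 were below the count filter in these libraries. IRF7, IRF9, XAF1, DTX3L and IFITM1 (5 genes) were listed at 0 in all 6 libraries, that is, in both genotypes. Another 4 had 1 to 3 counts in all: RSAD2, whose protein viperin blocks viral polymerases (0 in the double knockout, 1 in wild type), PARP9 (0 and 2), OAS1 (1 and 0) and TRIM22 (2 and 1). DTX3L and PARP9 share 217 exonic bases on opposite strands. XAF1 shares 2535 of its 6615 exonic bases with PRAL on the opposite strand, which also had 0 counts in both genotypes. A further 6 had 4 to 11 counts (MX1, MX2, OAS2, OASL, CMPK2 and IFI44). CMPK2 had 7 counts over the double knockout libraries and 2 over wild type, and IFI44 had 1 and 3 counts in the same order. The last 5 had more (IFIT3, DHX58, IFIT2, BST2 and IFIH1). By counting error alone, 0 counts in a library leave room for a level of up to 3 counts, or 0.407 to 0.545 CPM depending on the library. When every gene with a count was tested instead, IFIT3 (log2 fold change 1.95, adjusted p = 0.000223), IFIH1 (2.38, adjusted p = 0.00547) and MX1 (adjusted p = 0.00396) also passed as higher.

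**Figure D3:**
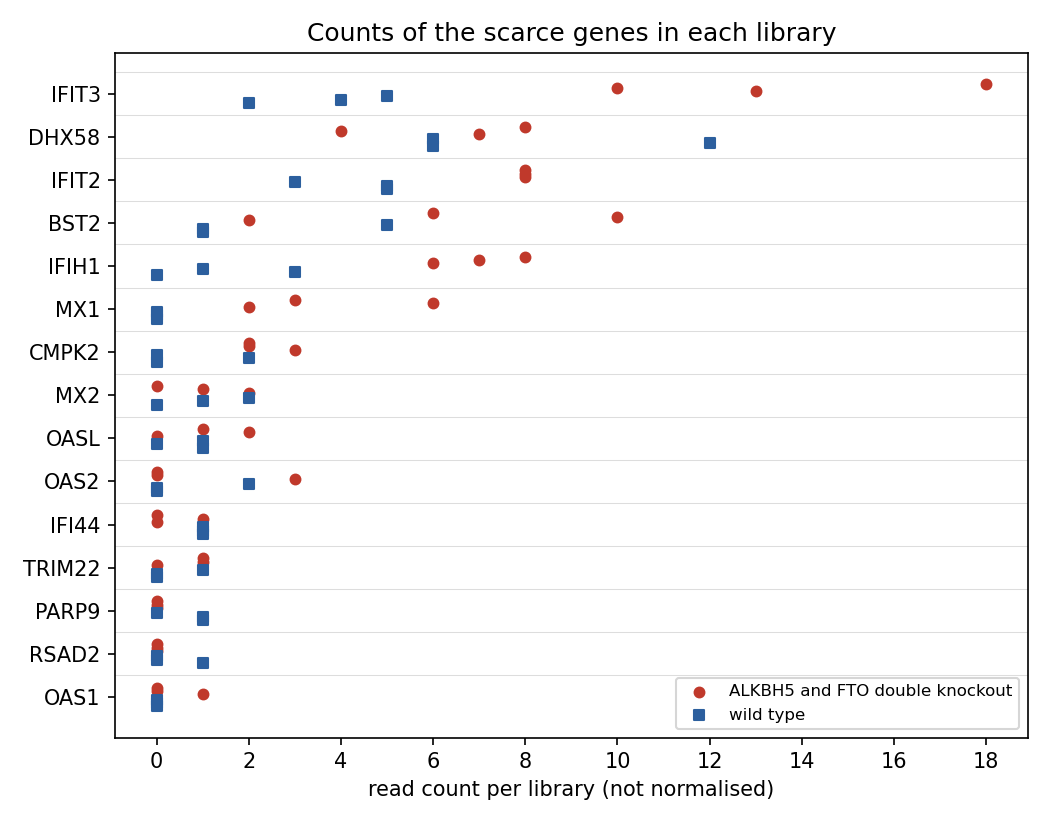
Raw read counts per library of the 15 listed genes that had counts but fell below the filter, with red circles for double knockout and blue squares for wild type, spread vertically so that equal values can be seen. IFIT3 has 10 to 18 counts in the double knockout and 2 to 5 in wild type, and IFIH1 has 6 to 8 and 0 to 3, while OAS1 and RSAD2 have 1 count in all.

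The rest of the pathway was read from further lists, whose counts stand against 57.1% of all tested genes changed, 28.6% upwards and 28.5% downwards. Interferon genes themselves (10 listed, types I, II and III) had 0 counts in every library of both genotypes. Of 16 receptor, JAK-STAT and feedback genes, 12 were tested, 2 rose and 5 fell (58.3% changed), with a median of -0.07. The kinase gene JAK1 averaged 106 ± 2.50 CPM in the double knockout and 144 ± 2.77 CPM in wild type and fell by 0.44 (adjusted p = 1.73e-19). The receptor gene IFNGR1 fell by 0.52 (adjusted p = 1.33e-12) in surroundings with a median of -0.48, and the STAT inhibitor gene PIAS1 fell by 0.41 (adjusted p = 4.01e-12). IFNAR2 was listed at 0 throughout, and shares 2038 of 4614 exonic bases with a gene on the same strand.

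Of 25 adaptors, kinases and other nucleic acid sensors, 13 were tested, 4 rose and 4 fell (61.5% changed, against 57.1% of all tested genes), with a median of 0.12. MAVS, the mitochondrial adaptor of RIG-I and MDA5, averaged 348 ± 13.6 CPM in the double knockout and 256 ± 3.79 CPM in wild type and rose by 0.44 (adjusted p = 2.76e-31). NLRX1, a mitochondrial protein that binds MAVS, rose by 0.37 (adjusted p = 1.09e-05), and AZI2, an adaptor of TBK1, fell by 0.34 (adjusted p = 5.50e-07) in surroundings with a median of -0.45. Of 16 genes listed under RNase L and the double-stranded RNA arm, all tested, 3 rose and 8 fell (68.8% changed), with a median of -0.14. This list is broader than genes that act on double-stranded RNA, and holds ABCE1 and the eIF2α kinase genes EIF2AK1, EIF2AK3 and EIF2AK4. ABCE1, a ribosome recycling factor, fell by 0.44 (adjusted p = 2.60e-28), the eIF2α kinase gene EIF2AK1 by 0.39 (1.80e-21) and the RNase gene DICER1 by 0.39 (5.15e-18). ABCE1 and EIF2AK1 had surroundings with medians of -0.54 and -0.26.

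Of 49 other interferon-stimulated genes, 27 were tested, 13 rose and 3 fell (59.3% changed, against 57.1% of all tested genes), with a median of 0.28. RNF213, a ubiquitin ligase, rose by 0.46 (adjusted p = 2.79e-21), TDRD7 rose by 0.85 (adjusted p = 5.78e-17) and NT5C3A fell by 0.52 (adjusted p = 8.95e-13). Their surroundings had medians of 0.16 for RNF213, 0.25 for TDRD7 and -0.35 for NT5C3A, which left -0.16 for NT5C3A. These 3 had the smallest p of the list, not the largest changes. At least 2-fold, 4 of the 27 rose and 0 fell, where 4.63% of all tested genes rose and 1.37% fell by that much. GBP2, counted among the 4, rose by 2.89 (adjusted p = 2.08e-12), but reached the count minimum in 0 wild type libraries. The chemokine genes CXCL10, CXCL11 and CCL5 had 0 counts in all libraries. Of 16 antigen presentation genes, 13 were tested, 9 rose and 0 fell (69.2% changed, where 28.6% of all tested genes rose and 28.5% fell), with a median of 0.49, where all tested genes had a median of 0.01. The ER aminopeptidase gene ERAP2, which trims peptides for MHC class I, averaged 11.3 ± 1.39 CPM in the double knockout and 1.91 ± 0.283 CPM in wild type (log2 fold change 2.53, adjusted p = 1.97e-26). Its neighbour ERAP1 rose by 0.94 (adjusted p = 2.56e-10) and HLA-E by 0.49 (adjusted p = 2.12e-13). HLA-C, B2M and PSME2 were among the 4 tested genes of this list that did not pass, with log2 fold changes of 0.05, 0.01 and 0.09. HLA-B, counted among the 9, rose by 0.11 (edgeR adjusted p = 0.0306). That call was lost in 5 of the fits that left out a single library, and without the count filter (adjusted p = 0.121). TAP2, the partner of TAP1, was listed at 0 and shares 2064 of 6390 exonic bases with another gene on the same strand.

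**Figure D4:**
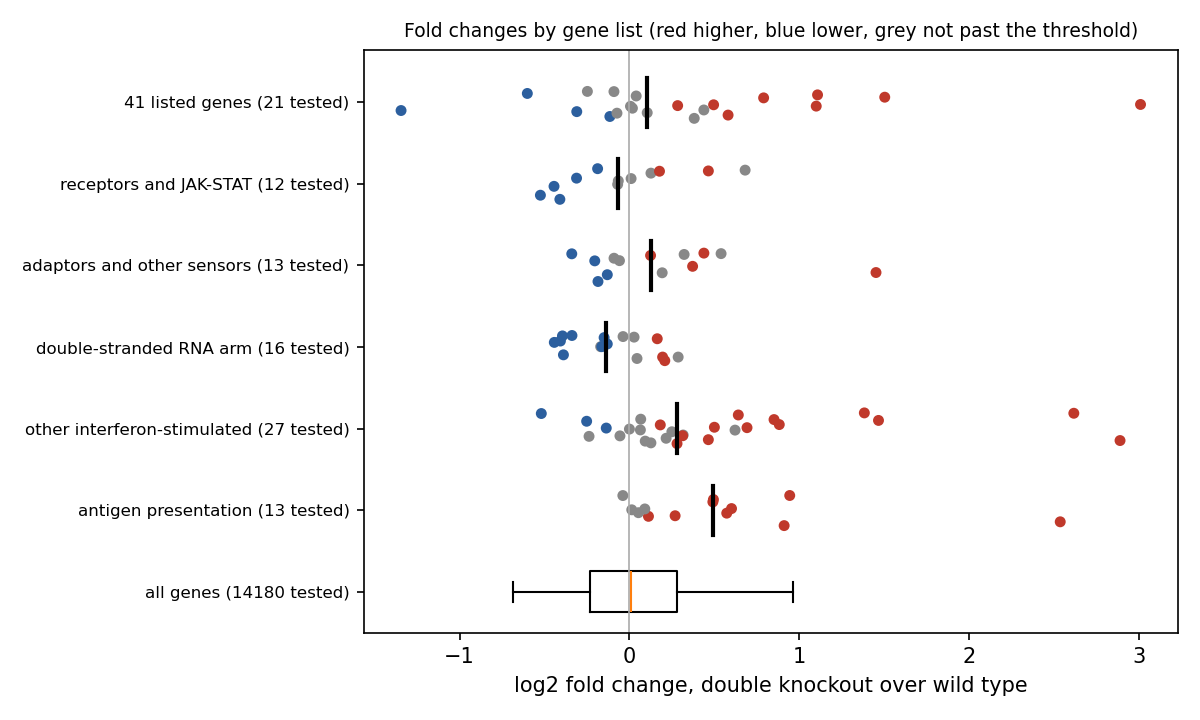
Log2 fold change, double knockout over wild type, of each tested gene by list (red higher, blue lower, grey not past the threshold), with a black line for the list's median and a box for all 14180 tested genes (median, quartiles and whiskers at the 5th and 95th percentiles). The medians run from -0.14 for the list labelled double-stranded RNA arm, which also holds other eIF2α kinase genes and ABCE1, to 0.49 for antigen presentation. Risen and fallen genes occur side by side among the 21 tested members.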

How the data were processed

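The authors deposited whole-number read counts per gene for 6 libraries, without normalisation. Per the submitters' processing notes, the authors used cutadapt 2.10, STAR 2.7.6a, featureCounts and the hg38 build. The library kit was a directional one per the labels, but the sources used here do not say whether counting used strand or how shared reads were handled. All 58721 gene identifiers matched GENCODE release 29.

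Members, lists and tests were chosen with earlier results of these data known. Genes passing filterByExpr (minimum count 10, minimum total count 15) were scaled by TMM and fitted in edgeR 4.0.16 (R 4.3.3) with glmQLFit in robust mode. glmQLFTest p-values were adjusted by Benjamini and Hochberg over 14180 genes. The standard error is the unshrunken log2 fold change over the root of the F statistic. Simulated data for this comparison, with 200 of 14180 genes changed by a log2 size of 1 or 0.5, gave 88% recovery at size 1 and 81% at size 0.5, and 8.15% of all calls were false. The simulation gave every gene the same dispersion (coefficient of variation 2.4%) and changed far fewer genes than were called here. Its rates therefore need not hold for single members of these data. Alternatives used DESeq2 1.42.0, limma 3.58.1, other scalings, no filter, a replicate block and left-out libraries. CPM used TMM-scaled totals, and TPM used GENCODE exon lengths. Counting intervals are exact binomial (Clopper-Pearson) 95% intervals on summed counts and cover counting error only. The text names every member, and the 3 genes with the smallest p of each further list. IFNAR2, TAP2, USP41, BCL2L12, AL136295.5, PRAL, C5orf56, AC116366.3, HLA-B, HLA-C, B2M, PSME2, GBP2 and genes at 0 were named after their values were seen. Some genes of the further lists are not reported here. Replicate numbers did not pair the libraries: correlations of same-numbered deviations were 0.0106, 0.0166 and 0.0085.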

Additional observations from a re-analysis of the deposited data

How the results depend on the processing

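Among the 12 called members, the direction was the same in all 12 alternatives, and OAS3, IFITM2, IFITM3, USP18, TAP1, HERC5, IFIT1, IRF3 and ADAR also kept their calls. With DESeq2 5 members rose and with spike-in scaling 5 rose, since IFI6, IRF1 and DDX58 lost their calls in both, while 4 fell in each. Spike-in scaling used GFP and FLuc, the RNAs the labels name, with 316 to 440 counts per library together, and left out the Rluc row (271 to 378 counts). It shifts the median of all genes by -0.11 and gave 2133 higher and 4236 lower genes of all tested. Leaving out single libraries gave 7 to 8 higher and 4 lower members, and 3636 to 3827 higher and 3772 to 3915 lower genes in all. The members were not the same ones: each of these fits lost 1 or 2 of the 12 calls (from IFI6, IRF1 and DDX58) and newly called IFIT3. With all libraries IFIT3 is below the filter, and it reached the count minimum in 2 double knockout and 0 wild type libraries. Without wild type replicate 2, IFI35 was newly called as well. A replicate block gave 8 higher and 4 lower members and changed no call of a member, but the numbers do not pair the libraries. DESeq2 size factors and limma voom also gave 8 and 4. No low-count filter gave 10 and 4, with IFI6 lost and IFIH1, IFIT3 and MX1 newly called. Signs turned only in genes that passed no threshold: with spike-in scaling IFIT5 (-0.0698), STAT2 (-0.0097), TRIM25 (-0.0857) and EIF2AK2 (-0.10), without the filter EIF2AK2 (-0.0083), and without single libraries IFIT5 (-0.0129 to 0.0664), IFI27 (-0.385 to 0.11), TRIM25 (-0.0369 to 0.0685) and EIF2AK2 (-0.0313 to 0.0298). The cause of these differences was not tested. Depth limits the 20 members below the filter, for which counting intervals are wide.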
